A study of Rattus norvegicus with 48 samples.

Results

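The data described here are the liver miRNA levels of 12 samples, out of 48 in the whole series. The samples came from male Sprague-Dawley rats in which miR-21 was inhibited before 70% partial hepatectomy (PHx). They were chosen by their labels alone: CHO.24hr.AM21 and EtOH.24hr.AM21, together 6 animals, against CHO.0hr.AM21 and EtOH.0hr.AM21, together 6 animals, with all 143 miRNAs of the deposited table. Each of the 4 groups held 3 animals. The sources used here do not say whether 0 h and 24 h tissue can come from the same rat. Each sample is therefore counted and tested as a separate animal. All 12 rats were pair-fed a Lieber-DeCarli liquid diet for 6 to 8 wk, starting at an age of 8 to 14 wk, in which 36% of calories came from ethanol (EtOH) or from maltose-dextran carbohydrate (CHO). All 12 were also given AM21, a locked nucleic acid (LNA) oligonucleotide antisense to miR-21, at 7.5 mg/kg by intraperitoneal injection. The study's methods place 1 injection 72 h before surgery and another directly after it, so the 0 h animals, collected before PHx, are described as having had the earlier one. The 24 h animals had both injections, so the time after PHx cannot be told apart from the later injection. The comparison asks which miRNAs change in the remnant liver 24 h after PHx when miR-21 is inhibited. It is set beside the same interval in 24 control rats that were untreated or injected with 1 mL of saline, 6 of each at 0 h and 6 of each at 24 h, with as many CHO-fed as EtOH-fed animals in each.

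After PHx the hepatocytes of the rat liver leave quiescence and enter the cell cycle together, and the bulk of their DNA synthesis falls about a day after surgery. miRNAs are short RNAs that load into Argonaute proteins and lower the translation and stability of messages that pair with their seed, the bases 2 to 8 of the mature strand. miR-21 is among the miRNAs best known to rise in regenerating liver. The miR-17/92 cluster and its paralogs are transcribed as polycistrons, are induced by MYC and E2F factors, and favour proliferation, whereas let-7 miRNAs and miR-34a, a target of p53, restrain it. The tissue was whole liver, and in such bulk RNA fewer cells of a type and less RNA per cell cannot be told apart.

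The mature sequences that carry the results are printed here with the seed in capitals, from RefSeq's annotation of the rat build GRCr8. Of 28 strands looked for, 27 were matched. Names without an arm were read as the strand that carries the plain name in rat annotation. The first set shows how the miRNAs that were higher at 24 h share seeds, with the target of the inhibitor at its head and the cluster neighbour miR-25, which has another seed, at its end.
miR-21: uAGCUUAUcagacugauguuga
miR-17-5p: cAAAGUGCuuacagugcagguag
miR-20a-5p: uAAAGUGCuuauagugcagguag
miR-20b-5p: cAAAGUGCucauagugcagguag
miR-93: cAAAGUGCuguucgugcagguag
miR-106b: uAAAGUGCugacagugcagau
miR-19a: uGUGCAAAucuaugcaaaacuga
miR-19b: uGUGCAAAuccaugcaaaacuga
miR-34a: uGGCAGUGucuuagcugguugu
miR-25: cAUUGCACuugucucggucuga

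The second set shows the miRNAs that were lower at 24 h and the relatives they were measured beside.
miR-23b: aUCACAUUgccagggauuacc
miR-23a: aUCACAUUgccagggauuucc
miR-27b: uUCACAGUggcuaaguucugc
miR-27a: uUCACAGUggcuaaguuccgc
miR-24: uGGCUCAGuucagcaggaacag
miR-100: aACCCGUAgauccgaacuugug
miR-99b: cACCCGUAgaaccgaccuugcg
miR-10a-5p: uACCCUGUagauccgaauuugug
miR-98: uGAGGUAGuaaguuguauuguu

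miR-17-5p, miR-20a-5p, miR-20b-5p, miR-93 and miR-106b share the seed AAAGUGC, and miR-19a and miR-19b share GUGCAAA. miR-19a and miR-19b differ at 1 of 23 bases, as miR-23a and miR-23b and miR-27a and miR-27b do at 1 of 21. How far the probes tell such near-identical strands apart is not given in the sources used here, so values of close relatives may share counts. In GRCr8 the hairpins of miR-17, miR-19a, miR-20a and one copy of miR-19b lie at chr15:98587848-98588519. The paralog locus at chrX:137343058-137343647 holds another copy of miR-19b, miR-20b and a hairpin annotated as Mir106a that carries the miR-17-5p strand. A count of miR-17-5p or miR-19b can therefore come from either locus, and miR-20a and miR-20b-5p were read by 1 joint probe. miR-25, miR-93 and miR-106b lie at chr12:22156641-22157123. miR-24, miR-27b and miR-23b lie together at chr17:1818669-1819482, and miR-24, miR-27a and miR-23a at chr19:40859455-40859843.

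The values are log2 CPM (counts scaled to a common library size per animal), scaled by the trimmed mean of M values (TMM), and each change is 24 h minus 0 h on that scale. The 12 animals had 105799 to 240355 total counts, with a median of 168320, and their median miRNA had a median of 94 counts. For 39 of the 143 miRNAs that median was below 50 counts, so their values carry more counting error. miR-122, the main miRNA of hepatocytes, made up 51.3% to 68.8% of each library. Its share was 68.0% and 68.8% in the CHO-fed 24 h animals of replicates 1 and 3, which had the lowest TMM factors (0.80 and 0.82), against at most 63.2% in the other 10. These 2 animals stand apart. The numbers of calls in both diets together and in CHO-fed animals are given with and without them. Counts of non-overlapping ranges, of shared signs and of calls shared with controls include them throughout. The part of these 2 animals in the changes themselves was not tested.

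miR-21 was checked first. It had 15 to 32 counts in every AM21-treated animal, the lowest median of the 143 miRNAs. The 24 controls had 120 to 9934 counts of it, so no AM21 label was contradicted. The lowest count of any miRNA in an AM21-treated animal ran from 8 to 24. miR-21 thus lay near the floor at both times, and its change under AM21 is poorly measured. Its log2 CPM under AM21 ran from 6.65 to 7.76 (median 7.34) at 0 h and from 6.59 to 7.49 (median 7.22) at 24 h. The 2 ranges overlapped almost wholly. The change was -0.23 (standard error 0.20, limma adjusted p = 0.414, 95% interval -0.65 to 0.19). In the controls of both arms together the change of miR-21 was 1.70 (standard error 0.28, limma adjusted p = 4.5e-05). It was 2.52 in saline-treated animals alone (standard error 0.59, limma adjusted p = 0.0197). In untreated animals alone it was 0.88 (standard error 0.23, limma adjusted p = 0.0256). Saline-treated animals lay between 9.65 and 14.10 at 0 h and between 14.72 and 15.48 at 24 h, and untreated animals between 13.46 and 15.002, then between 15.07 and 15.76. In both control arms every 24 h animal lay above every 0 h animal, and the saline-treated 0 h animals were the most scattered (SD 1.80, n = 6). The difference between the changes with and without AM21 was -1.93 (95% interval -2.93 to -0.93), the smallest p of the 143 miRNAs (0.00043 unadjusted), with a limma adjusted p of 0.0615. The size depended on the control arm. It was -2.75 against saline-treated animals alone (limma adjusted p = 0.00471) and -1.11 against untreated animals alone (limma adjusted p = 0.830).

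In both diets together, 17 of 143 miRNAs changed at 24 h under AM21, 7 higher and 10 lower (limma with diet as a covariate, Benjamini-Hochberg adjusted p under 0.05). The background of calls was thus 4.9% higher and 6.99% lower, and 46 miRNAs had an unadjusted p under 0.05. The higher miRNAs were miR-19b, miR-34a, miR-674-5p, miR-93, miR-17-5p, miR-143 and the joint probe of miR-20a and miR-20b-5p. The lower ones were miR-451, miR-99a, miR-10a-5p, miR-23b, miR-27b, miR-361, miR-139-5p, miR-100, miR-98 and miR-30c. Fold changes were moderate, the largest being 1.96. The ranges of the 6 animals at 24 h and the 6 at 0 h did not overlap for 7 of 143 miRNAs (4.9%): miR-19b, miR-17-5p, miR-34a and miR-143 above, and miR-99a, miR-27b and let-7f below. All but let-7f were among the 17 called. The count of 17 depended on single animals. It ranged from 5 to 23 when 1 animal at a time was left out, and 0 miRNAs passed without both CHO-fed 24 h animals of high miR-122 share (35 at an unadjusted p under 0.05).

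**Figure D1:**
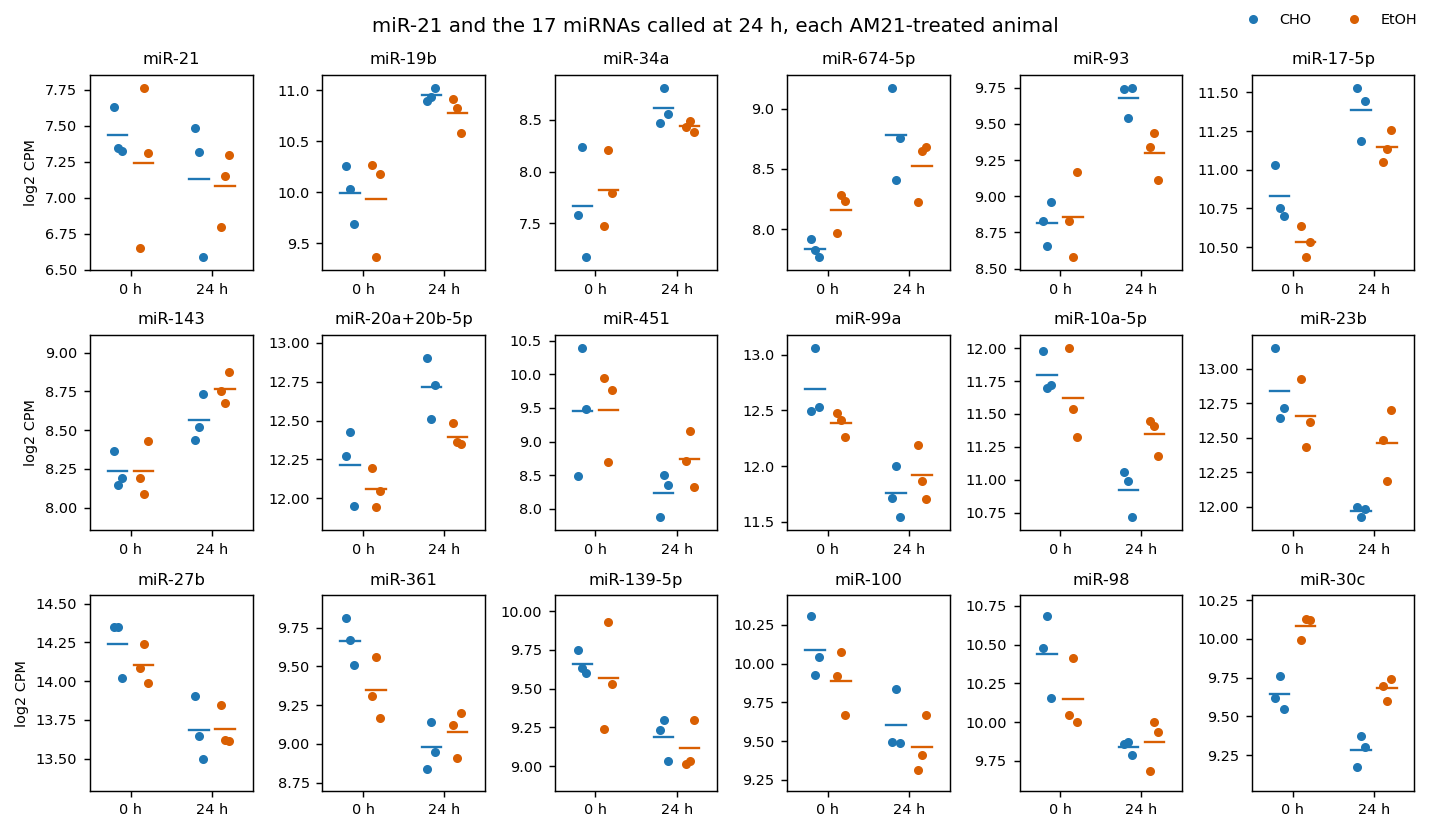
Level of miR-21 and of the 17 miRNAs called at 24 h in each of the 12 AM21-treated animals. Vertical axes give log2 CPM, each panel with its own range, horizontal axes the time after PHx, points single animals (blue CHO-fed, orange EtOH-fed) and short lines the mean of 3. The panels of miR-19b, miR-34a, miR-17-5p, miR-143, miR-99a and miR-27b show 24 h animals fully apart from 0 h animals, whereas those of miR-21 and miR-451 overlap.

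The miR-17/92 members and their paralogs were the largest group among the higher miRNAs. 7 probes of the list were measured, 4 rose and the other 3 did not pass the test, beside 4.9% called higher over all 143 miRNAs. The median change of the list was 0.59 against 0.02 over all 143. The list median was 0.48 and 1 member, miR-25, turned negative when animals were scaled to their total counts. miR-19b ran from 9.37 to 10.27 log2 CPM (median 10.10) at 0 h and from 10.58 to 11.03 (median 10.90) at 24 h. All 6 animals at 24 h lay above all 6 at 0 h. It rose by 0.90, or 1.86-fold (standard error 0.16, limma adjusted p = 0.00962). miR-17-5p ran from 10.44 to 11.03 (median 10.67) at 0 h and from 11.05 to 11.53 (median 11.22) at 24 h, again with no overlap, although its highest 0 h animal lay just under the lowest 24 h animal. It rose by 0.59, or 1.501-fold (standard error 0.11, limma adjusted p = 0.00994).

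miR-93, which shares the seed of miR-17-5p but comes from the cluster on chromosome 12, ran from 8.58 to 9.17 log2 CPM (median 8.83) at 0 h and from 9.11 to 9.75 (median 9.49) at 24 h. 5 of 6 animals at 24 h were above every 0 h animal, and the exception was EtOH-fed. Its change was 0.65, or 1.57-fold (standard error 0.14, limma adjusted p = 0.0151). The joint probe of miR-20a and miR-20b-5p lay between 11.94 and 12.42 at 0 h and between 12.35 and 12.90 at 24 h. It rose by 0.42 (standard error 0.12, limma adjusted p = 0.0406), the smallest change among the higher miRNAs, and 4 of 6 animals at 24 h exceeded all 0 h animals. Of the 3 members not called, miR-19a, 1 base from miR-19b, had a change of 0.87, nearly as large as that of miR-19b, with a wider standard error of 0.29 (adjusted p = 0.0588). Its 0 h animals were scattered from 9.18 to 11.03. miR-106b had a change of 0.37 (adjusted p = 0.0916). miR-25, transcribed with miR-93 and miR-106b but with another seed, had a change of 0.03 (95% interval -0.21 to 0.27).

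miR-34a, which p53 induces and which restrains cyclin-dependent kinases and other drivers of the cell cycle, also rose. It ran from 7.18 to 8.24 log2 CPM (median 7.69) at 0 h and from 8.38 to 8.81 (median 8.48) at 24 h, and the groups did not overlap. The change was 0.78, or 1.72-fold (standard error 0.18, limma adjusted p = 0.0193), on a median of 34.5 counts at 0 h and 59.5 at 24 h. miR-34c, the other member of its family in the table, did not pass the test. miR-674-5p lay between 7.77 and 8.29 at 0 h and between 8.23 and 9.17 at 24 h, with 5 of 6 animals above all 0 h animals, and rose by 0.65 (standard error 0.16, limma adjusted p = 0.0262). miR-143, a miRNA of smooth muscle and other mesenchymal cells, lay between 8.09 and 8.43 at 0 h and between 8.44 and 8.88 at 24 h. Its lowest 24 h animal lay barely above its highest 0 h animal. The change was 0.43 (standard error 0.12, limma adjusted p = 0.0333), and it was the only 1 of 4 measured stellate or mesenchymal markers that passed. The median of those 4 was 0.13.

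Among the lower miRNAs, miR-99a and miR-100 belong to a family that targets the growth kinase mTOR. miR-99a ran from 12.27 to 13.06 log2 CPM (median 12.48) at 0 h and from 11.54 to 12.19 (median 11.79) at 24 h. All 6 animals at 24 h lay below all 6 at 0 h, and it fell by 0.70 on the log2 scale, or 1.63-fold (standard error 0.15, limma adjusted p = 0.0151). miR-100 lay between 9.67 and 10.30 at 0 h and between 9.31 and 9.83 at 24 h and fell by 0.45 (standard error 0.13, limma adjusted p = 0.0334), with 4 of 6 animals below all 0 h animals. miR-99b, with the seed of miR-100, had a change of -0.30 (adjusted p = 0.105). The miR-125 members that accompany them had changes of -0.07 for miR-125a-5p and 0.29 for miR-125b-5p. Of the 5 measured members of the miR-99/100 and miR-125 list, 2 fell and 3 did not pass, and the median was -0.30. Over all 143 miRNAs 6.99% were called lower. miR-10a-5p, whose gene lies within a HOX cluster and whose seed differs from that of miR-100, lay between 11.33 and 12.001 at 0 h and between 10.72 and 11.45 at 24 h. It fell by 0.58 (standard error 0.16, limma adjusted p = 0.0333), and 4 of 6 animals at 24 h were below every 0 h animal.

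Of the miR-23/27/24 clusters, miR-27b and miR-23b fell. miR-27b, a regulator of lipid metabolism genes in liver, was among the 10 most abundant miRNAs of these animals. It ran from 13.99 to 14.35 log2 CPM (median 14.16) at 0 h and from 13.49 to 13.90 (median 13.63) at 24 h, with no overlap. It fell by 0.48, or 1.40-fold (standard error 0.12, limma adjusted p = 0.0262). miR-23b lay between 12.43 and 13.15 at 0 h and between 11.92 and 12.70 at 24 h, with 4 of 6 animals below all 0 h animals. It fell by 0.53 (standard error 0.16, limma adjusted p = 0.0476). The paralogs from chromosome 19 had changes of -0.36 for miR-23a (adjusted p = 0.0674) and -0.28 for miR-27a (adjusted p = 0.128). miR-24, made from both loci, had a change of 0.04 (95% interval -0.36 to 0.44), which became -0.06 when animals were scaled to total counts. Of 5 probes in this list 2 fell, 3 did not pass and the median was -0.36, beside 6.99% called lower over all 143 miRNAs.

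miR-361 lay between 9.17 and 9.81 log2 CPM at 0 h and between 8.84 and 9.20 at 24 h, where 5 of 6 animals were below all 0 h animals. It fell by 0.48 (standard error 0.13, limma adjusted p = 0.0333). miR-139-5p fell by 0.46 (standard error 0.13, limma adjusted p = 0.0334), with 4 of 6 animals below all 0 h animals. miR-30c, which lowers lipoprotein secretion from hepatocytes, differed between diets at both times, so its ranges overlapped across diets (9.55 to 10.13 at 0 h, 9.17 to 9.74 at 24 h) but not within either diet. It fell by 0.38 (standard error 0.10, limma adjusted p = 0.0333), the smallest change called. The other 4 measured members of the miR-30 family did not pass, and the median of the 5 was 0.13. With miR-30b-3p, the opposite arm of miR-30b-5p, which did not pass either, the median of the 6 probes was 0.06.

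miR-98, a let-7 relative, lay between 9.999 and 10.69 log2 CPM at 0 h and between 9.69 and 10.001 at 24 h, with 5 of 6 animals below all 0 h animals. It fell by 0.44 (standard error 0.13, limma adjusted p = 0.0476). All 8 measured let-7 members had negative changes over both diets, but miR-98 was the only 1 that passed and the median was -0.15. Negative changes were found for 68 of all 143 miRNAs, and 6.99% were called lower. Close relatives may share counts, so the 8 signs are not independent. In CHO-fed animals let-7b, let-7d and let-7i had positive changes (0.13, 0.02 and 0.09), and the list median was -0.01 there and -0.30 in EtOH-fed animals. let-7f and let-7c lay just outside the threshold (both adjusted p = 0.0501), with changes of -0.34 and -0.38. let-7f lay between 13.85 and 14.15 at 0 h and between 13.45 and 13.75 at 24 h without overlap. miR-26a, miR-423 and miR-511 had the same adjusted p, with changes of -0.69, 0.63 and 0.46. miR-423 and miR-511 fall outside the rule by which miRNAs were named and were picked after their values were seen.

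miR-451, made in red blood cell precursors, had the largest change and the most scatter. It ran from 8.50 to 10.39 log2 CPM (median 9.62) at 0 h and from 7.88 to 9.16 (median 8.42) at 24 h, and 3 of 6 animals at 24 h were below all 0 h animals. It fell by 0.97, or 1.96-fold (standard error 0.30, limma adjusted p = 0.0476). miR-144, transcribed with miR-451, had a change of -0.86 (standard error 0.42, adjusted p = 0.179). The summed level of these 2 ran from 1019 to 5974 TMM-scaled CPM at 0 h and from 752 to 1699 at 24 h, with overlap. The call of miR-451 held under 8 of 22 alternatives. The part of red blood cells in the other changes was not tested. The 4 leukocyte and 3 hepatocyte markers had 0 calls, with medians of 0.18 and 0.13. The bile duct, muscle and endothelial markers measured had 0 calls too, and 0 of 3 pancreas markers were in the table.

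**Figure D2:**
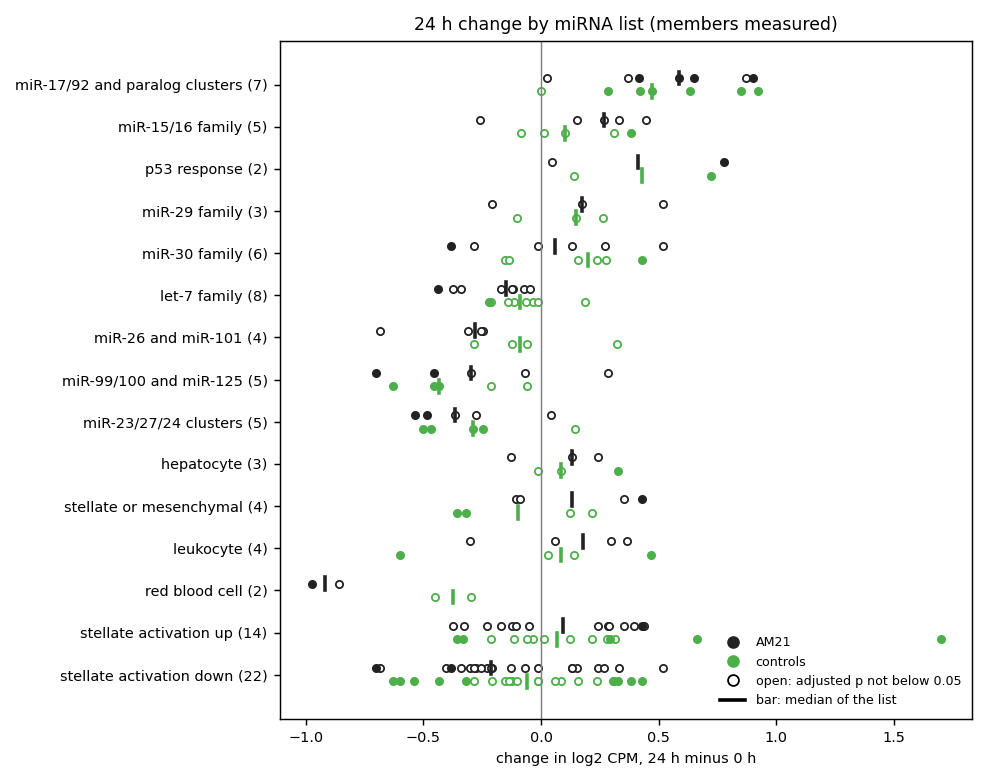
Change at 24 h of each measured member of 15 lists under AM21 (black) and in controls (green). The horizontal axis is the change in log2 CPM, filled points passed an adjusted p of 0.05, bars are list medians and numbers in brackets count measured members. The miR-17/92 list has 4 filled black points, all right of 0, and the let-7 list has 8 black points left of 0 with 1 filled.

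The remaining lists had few calls. The miR-15/16 family, which restrains cyclins, had 5 measured members and 0 calls with a median of 0.27, and the miR-29 family, which lowers collagen messages, had 3 measured members and 0 calls with a median of 0.17. miR-221, which targets the cell cycle inhibitor p27, had a change of 0.44 (adjusted p = 0.0916). The inflammatory feedback, hypoxia and X-linked miR-532 lists had 2, 1 and 2 measured members and 0 calls. All 4 measured members of the miR-26 and miR-101 list had negative changes over both diets, as had 68 of all 143 miRNAs. The 4 had a median of -0.28, and 0 passed. The list median was -0.73 in CHO-fed animals, where miR-26a fell, and -0.01 in EtOH-fed animals, where miR-101a and miR-101b had positive changes (0.04 and 0.31). Of 14 measured miRNAs known to be higher in activated stellate cells, the inhibited miR-21 among them, 1 rose (miR-143) with a list median of 0.09. Of 21 known to be lower, 2 fell (miR-99a and miR-30c) with a list median of -0.21, leaving out miR-30b-3p, the other arm of a listed miRNA. Over all 143 miRNAs 4.9% were called higher and 6.99% lower, with a median change of 0.02, so both counts lay near that share. Both stellate cell lists came to the study from earlier work on cultured rat stellate cells. miR-146a, miR-340-5p, let-7a, miR-1224 and miR-365 were picked by the study for their relation to miR-21 in these same animals, so their direction is not independent evidence. Of these 5, 0 were called, and their median was -0.12.

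In each diet alone the change was that of 3 animals against 3, with the spread taken from AM21-treated animals of both diets. In CHO-fed animals 10 miRNAs were called, 5 higher (3.5%) and 5 lower (3.5%), with 41 at an unadjusted p under 0.05. A fit on only the 3 and 3 CHO-fed animals compared called 0, so these calls depended on the spread shared with EtOH-fed animals. miR-93, miR-674-5p, miR-667, miR-19b and miR-34a rose, and miR-99a, miR-10a-5p, miR-23b, miR-26a and miR-361 fell. 8 of the 10 were among the 17 called in both diets, and miR-667 and miR-26a were called in CHO-fed animals alone. In EtOH-fed animals limma called 0 (0.0%), with 20 at an unadjusted p under 0.05, 0 called with voom weights as well and a smallest adjusted p of 0.248. The ranges of 3 and 3 animals did not overlap for 38 miRNAs (26.6%) under the CHO diet and 35 (24.5%) under the EtOH diet, so the 2 diets were alike by that count. The median absolute change was 0.30 under the CHO diet and 0.26 under the EtOH diet, with a median standard error of 0.22 in both.

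The CHO-fed changes were the larger ones for 14 of the 17 miRNAs called in both diets. For the diet difference itself, 2 of the 17 had an unadjusted limma p under 0.05 and 0 were called. miR-93 was at 8.83, 8.66 and 8.96 log2 CPM at 0 h and at 9.74, 9.54 and 9.75 at 24 h in CHO-fed animals, a change of 0.86 (standard error 0.18, limma adjusted p = 0.0201). Under the EtOH diet it was at 8.83, 8.58 and 9.17, then at 9.34, 9.44 and 9.11, a change of 0.44 (adjusted p = 0.310). The diets started from like levels and their groups overlapped only in EtOH-fed animals. miR-99a was at 12.49, 13.06 and 12.53 in CHO-fed animals at 0 h and at 11.72, 12.01 and 11.54 at 24 h, so it fell by 0.94 (standard error 0.20, limma adjusted p = 0.0201). EtOH-fed animals had it at 12.47, 12.41 and 12.27, then at 12.19, 11.87 and 11.70, a change of -0.46 (adjusted p = 0.310). Neither diet's groups overlapped.

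miR-23b was at 13.15, 12.65 and 12.72 in CHO-fed animals at 0 h and at 12.001, 11.92 and 11.98 at 24 h, where it fell by 0.87 (standard error 0.20, limma adjusted p = 0.0201). EtOH-fed animals had it at 12.93, 12.43 and 12.62, then at 12.49, 12.19 and 12.70, with overlap and a change of -0.20. The CHO-fed 24 h animals were thus close together and the EtOH-fed ones were not separated from 0 h. miR-26a was at 10.45, 9.85 and 9.88 in CHO-fed animals at 0 h and at 8.26, 9.48 and 9.04 at 24 h, so it fell by 1.13 (standard error 0.27, limma adjusted p = 0.0224), with the lowest value in 1 animal of high miR-122 share. In EtOH-fed animals it lay between 9.24 and 9.54 at 0 h and between 8.98 and 9.24 at 24 h, a change of -0.24 (adjusted p = 0.634).

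miR-17-5p and miR-19b had like changes in both diets under TMM scaling. miR-17-5p was at 11.03, 10.75 and 10.70 in CHO-fed animals at 0 h and at 11.53, 11.18 and 11.45 at 24 h. Its EtOH-fed values were 10.64, 10.44 and 10.53, then 11.05, 11.13 and 11.26. Groups were apart in both diets, and the changes were 0.56 (adjusted p = 0.0528) and 0.61 (adjusted p = 0.248). For miR-19b the CHO-fed change was 0.96 (limma adjusted p = 0.0224) and the EtOH-fed change was 0.84 (adjusted p = 0.248). Under total count scaling the CHO-fed and EtOH-fed changes moved apart, to 0.25 and 0.71 for miR-17-5p and to 0.65 and 0.94 for miR-19b. Under TMM those 2, with miR-143 at 0.53 (adjusted p = 0.266), had the smallest p in EtOH-fed animals.

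**Figure D3:**
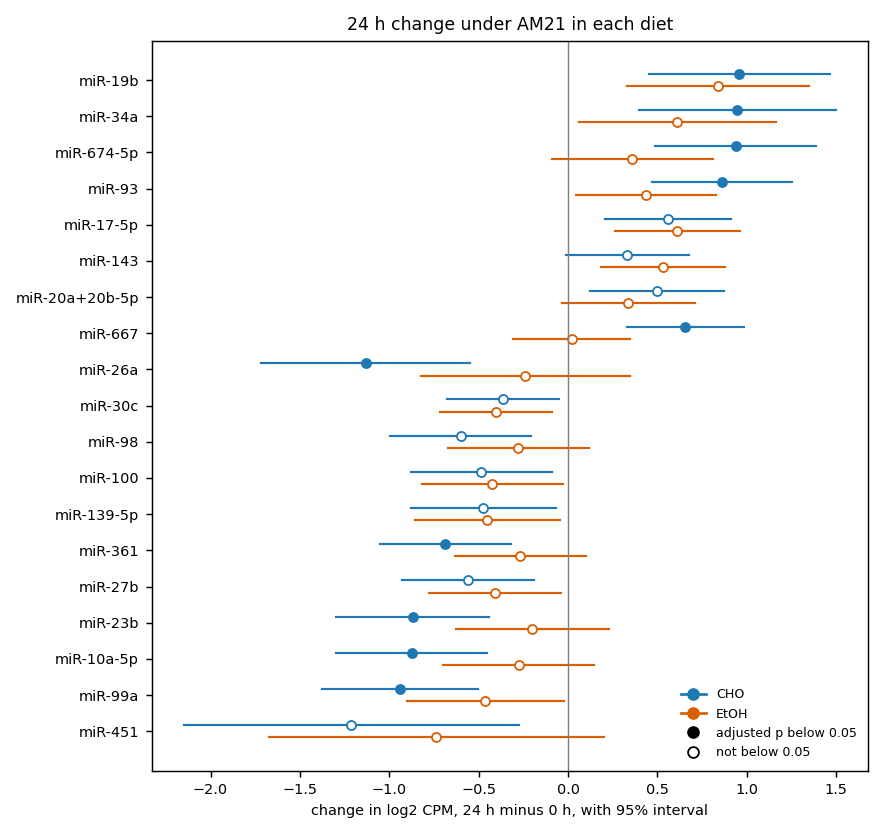
Change at 24 h under AM21 in CHO-fed (blue) and EtOH-fed (orange) animals for the 17 miRNAs called in both diets together and for miR-667 and miR-26a, called in CHO-fed animals alone. The horizontal axis is the change in log2 CPM, lines are 95% intervals from limma, and filled points passed an adjusted p of 0.05. All 10 filled points are CHO-fed, and all 19 pairs lie on the same side of 0.

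All 17 called miRNAs had the same sign in both diets, which a mean over the diets favours, and 14 were larger in CHO-fed animals (12 under total count scaling). Across all 143 miRNAs the sign was the same for 94 (65.7%), or 79 under total count scaling, and Pearson's r of the 2 changes under TMM was 0.56. This is a description across miRNAs, which share the scaling of each animal. A test of the difference itself called 0 of 143 (0.0%), with 10 at an unadjusted p under 0.05, 0 called with voom weights as well and a smallest adjusted p of 0.581. The 5 miRNAs with the smallest p were miR-101b, miR-667, miR-122, miR-3596d and miR-15b. miR-101b was at 11.99, 11.97 and 11.07 in CHO-fed animals at 0 h and at 10.77, 10.97 and 10.89 at 24 h. Its EtOH-fed values were 11.45, 10.93 and 11.13, then 11.51, 11.38 and 11.54. Its change was thus -0.80 in one diet and 0.31 in the other, neither called, and the difference was 1.10 (95% interval 0.39 to 1.82, unadjusted p = 0.00556). It was called only without replicate 3 of the CHO-fed 0 h animals, the lowest of its group.

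miR-667 rose by 0.66 under the CHO diet (limma adjusted p = 0.0201) and had a change of 0.02 under the EtOH diet, and the difference of -0.64 was not called (95% interval -1.10 to -0.17). For miR-122 the changes were 0.61 and -0.13, and the difference was -0.73 (95% interval -1.27 to -0.19), also not called. In CHO-fed animals miR-122 was at 18.80, 19.06 and 18.91 at 0 h and at 19.70, 19.21 and 19.68 at 24 h. The highest 2 values are those of replicates 1 and 3, the animals of high miR-122 share. miR-15b had a difference of -1.303 (95% interval -2.47 to -0.14). Its CHO-fed 0 h animals included 1 low animal, at 10.57 beside 12.17 and 12.44. Across the alternatives the difference of miR-15b ran from -1.66 to -0.72 and was never called. miR-3596d had a difference of -0.74 (95% interval -1.34 to -0.14). Total count scaling moved the diet differences up by a median of 0.41, to -0.23 for miR-667, -0.32 for miR-122, -0.33 for miR-3596d, -0.90 for miR-15b and 1.51 for miR-101b.

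The number of CHO-fed calls changed when animals were left out, and each such fit also had fewer animals. Replicates 1 and 3 at 24 h are the 2 animals of high miR-122 share, whose part was not tested. 0 miRNAs were called in CHO-fed animals without replicate 1 at 24 h (28 at an unadjusted p under 0.05) or without replicate 3 at 24 h (29), and 0 without both (11 at an unadjusted p under 0.05), whereas 17 were called without replicate 2. With replicate 1 at 0 h left out, 5 were called. Scaling to total counts in place of TMM moved the median change over all 143 miRNAs from -0.01 to -0.32 in CHO-fed animals, and then 28 were called, 2 higher and 26 lower. In both diets together it moved the median from 0.02 to -0.09 and gave 5 calls, 3 higher and 2 lower. All 17 and all 10 called miRNAs kept their sign under that scaling.

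Most of the 24 h changes under AM21 were also present without the inhibitor. In the controls 49 miRNAs were called, 26 higher (18.2%) and 23 lower (16.1%), on 12 animals against 12. Scaling to total counts moved the median change in controls from 0.06 to -0.12 and gave 48 calls, 7 higher and 41 lower. 13 of the 17 called under AM21 were among them, which is 76.5% of the AM21 calls and 26.5% of the control calls, and all 13 had the same sign. With the model used for AM21, of 6 animals against 6, limma called 14 (9.79%) in saline-treated and 26 (18.2%) in untreated animals. Of these, 7 and 11 were also called under AM21, which is 50% of the saline list and 42.3% of the untreated list. The 4 AM21 calls that were not called in controls were miR-143, miR-30c, miR-361 and miR-451. All 17 had the same sign in the controls (16 under total count scaling) and in the saline-treated animals, and 15 in the untreated animals, where miR-361 and miR-451 had small positive changes (0.08 and 0.14).

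**Figure D4:**
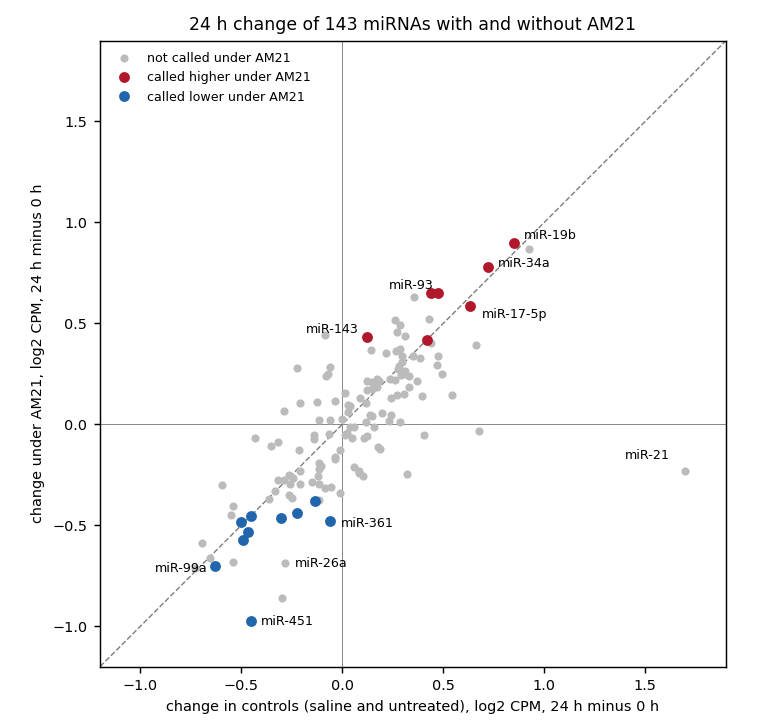
Change at 24 h of 143 miRNAs in controls (horizontal axis) and under AM21 (vertical axis), both in log2 CPM, with a dashed line of equal change. Red and blue points were called higher and lower under AM21. The 17 called points lie in the quadrants of equal sign under TMM scaling, and miR-21 stands far to the right, at 1.70 in controls and -0.23 under AM21.

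The sizes lay close together for some of the 17 called miRNAs and further apart for others. miR-19b had changes of 0.90 under AM21 and 0.85 in controls, and the difference was 0.05 (95% interval -0.50 to 0.60). For miR-17-5p the changes were 0.59 and 0.63, and the difference was -0.05 (95% interval -0.40 to 0.31). For miR-34a they were 0.78 and 0.72, and for miR-99a -0.70 and -0.63. Intervals of this width do not show equal change. The sizes were further apart for miR-361 (-0.48 under AM21 and -0.06 in controls), miR-143 (0.43 and 0.12) and miR-30c (-0.38 and -0.14). The median of the miR-17/92 list was 0.59 under AM21 and 0.47 in controls, where 6 of 7 rose. In controls 18.2% of all 143 miRNAs were called higher. Over the 17 called miRNAs the difference ran from -0.52 to 0.31, and for 16 its 95% interval included 0. Across the 143 miRNAs, Pearson's r of the 2 changes was 0.73, and 0.82 over the 142 without miR-21, as a description of different animals in 1 normalization.

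A direct test of whether the change under AM21 differed from that in controls called 0 of 143 (0.0%), with 4 at an unadjusted p under 0.05 and 0 called with voom weights as well. After miR-21 the smallest p belonged to miR-340-3p, miR-361, let-7f and miR-365. miR-340-3p had a change of -0.05 under AM21, from 7.47 to 7.89 log2 CPM at 0 h and from 7.24 to 8.01 at 24 h, and rose by 0.41 in controls (limma adjusted p = 0.00236). The difference was -0.46 (95% interval -0.80 to -0.11, adjusted p = 0.741). miR-361 fell by 0.48 under AM21 and had a change of -0.06 in controls, with a difference of -0.42 (95% interval -0.75 to -0.09, adjusted p = 0.741). let-7f had changes of -0.34 and -0.01 (difference -0.33, adjusted p = 0.946). miR-365 had changes of -0.23 and 0.08, and the difference of -0.32 had a 95% interval that included 0.

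Of the 49 control calls, 36 were not called under AM21. 33 of these had the same sign there, 15 had an unadjusted p under 0.05, and for 34 the 95% interval of the difference included 0. The 3 with the opposite sign were miR-21, miR-340-3p and miR-1949, the last at 0.68 in controls and -0.03 under AM21. miR-1949 falls outside the naming rule and was picked after its values were seen. With 6 animals against 6 under AM21 and 12 against 12 in controls, the 2 counts of calls do not compare like with like.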

How the data were processed

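RNA of rat liver was assayed by the nCounter (NanoString) service against 420 rat miRNAs. The deposited values are log2 CPM for 143 miRNAs in 48 animals, which the authors made by TMM scaling (edgeR 3.34.1) and the voom transformation (limma 3.48.3). By what filter the 143 were kept is not given in the sources used here, and the processing notes name limma only. Whole counts were recovered from the values and voom's pseudocount of 0.5, all within 0.001 of a whole number, and were used for depth, scaling alternatives and voom weights. Samples were grouped by their titles. Each n is a sample counted as 1 animal, and totals of 105799 to 240355 counts set the counting error.

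Linear models were fitted to the deposited log2 CPM in limma 3.58.1 (lmFit, then eBayes; R 4.3.3) over all 143 miRNAs without a further filter. Both diets together used time and diet in the 12 AM21-treated animals. Single diets and their difference used 4 group means of these 12. Controls, and the difference from them, used 12 group means of 36 animals at 0 and 24 h, with the mean of saline and untreated animals as control. Calls are Benjamini-Hochberg adjusted p-values under 0.05, two-sided, and intervals are 95% and unadjusted. Tables and figures were made with Python 3.11.15, pandas 2.3.3 and matplotlib 3.10.9. The fits were tested on simulated data with planted changes larger than any called in both diets together. The simulated animals were scaled by their known library sizes, so the test covers neither changes of the reported size nor TMM scaling.

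Named were miR-21, up to 12 calls of each direction in both diets, up to 5 of each direction in each diet, the 5 smallest p in the diet difference and in the difference from controls, and members of the cell type and family lists. The comparison and the lists were chosen with earlier results of these data known. Alternatives were RLE factors, the geometric mean of the 100 highest miRNAs, at least 50 counts in at least 3 animals, voom weights, a pseudocount of 5, a replicate block, log10 total count as a covariate, other fits and controls, and leaving out each animal. Total count scaling, leaving out both animals of high miR-122 share, and the 6 against 6 model in each control arm were chosen after seeing the data. Animals at 6 and 72 h were not used.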

Additional observations from a re-analysis of the deposited data

How the results depend on the processing

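The counts of calls moved more than the directions. The 17 miRNAs called in both diets kept their sign under all 22 alternatives, each called in 8 to 21 of them. miR-19b, miR-93 and miR-99a were called in 21, and miR-17-5p and miR-34a in 20. The 10 called in CHO-fed animals kept their sign under all 17 alternatives, each called in 9 to 13. Against the 17 calls in both diets, total count scaling gave 5 and leaving out both CHO-fed 24 h animals of high miR-122 share gave 0. With 1 animal left out the count was 5 to 23, with 11 and 6 calls without replicates 1 and 3 of CHO at 0 h, 8, 7 and 6 without replicates 1, 2 and 3 of CHO at 24 h, 10 without replicate 2 of EtOH at 0 h and 5 without replicate 2 of EtOH at 24 h. Against the 10 calls in CHO-fed animals, RLE factors gave 16, total count scaling 28, the filter on low counts 17 and voom weights 17. A fit on only the 6 animals compared gave 0 (27 at an unadjusted p under 0.05), as did leaving out both animals of high miR-122 share, after which 1 animal stood for CHO at 24 h and was assumed to vary like the rest. Leaving out 1 animal gave 0 to 17, with 5 without replicate 1 at 0 h. EtOH-fed animals had 0 calls under every alternative run. The diet difference had 0 to 1 calls with 1 animal left out, the 1 being miR-101b. The difference from controls had 1 call, miR-21, with saline-treated animals alone as controls (-2.75, against -1.11 with untreated animals alone), and 0 to 1 with 1 animal left out (1 without EtOH replicate 1 under AM21 or EtOH replicate 2 or 3 under saline, all at 0 h). The controls' 49 calls became 14 with saline-treated and 25 with untreated animals alone, and 14 and 26 with the 6 against 6 model. miR-21 in EtOH-fed animals under AM21, at -0.16 and not called, ran from -0.46 to 0.10 with 1 animal left out, turning positive without replicate 2 at 0 h. Where no value above shows it, the cause was not tested. Depth limits miR-21 most, at 15 to 32 counts under AM21.

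The labels number the animals 1 to 3 in every group without saying what the number marks. After group means were removed, same-numbered AM21-treated animals at 0 and 24 h had correlations of -0.15, -0.09 and 0.29 under the CHO diet. Under the EtOH diet the correlations were 0.29, -0.08 and -0.14. So few values, over miRNAs that share the scaling of each animal, cannot decide whether the numbers mark pairs. The main fits did not pair the animals. With a replicate block the calls numbered 19 for both diets together, 12 under CHO, 0 under EtOH, 0 in the diet difference, 0 in the difference from controls and 53 in the controls, and miR-451 was no longer called.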
